A study of Homo sapiens with 4 samples.

Results

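The nuclear genes of the mitochondrial respiratory chain, meaning subunits and assembly factors of complexes I to IV and of ATP synthase, were examined in SK-N-SH cells after a low dose of dioxin. The set held 31 named genes of chromosomes 1 to 5, and 28 of them were measured by an array feature annotated with that gene symbol and no other, 1 feature each, among 13493 features in all. UQCRH and COX7C shared their features with another symbol and are given apart, and SDHB was not analysed here. SK-N-SH is a human neuroblastoma line. The treated cultures received 2,3,7,8-tetrachlorodibenzo-p-dioxin (TCDD) at 1e-10 M for 24 h, the control cultures received the solvent dimethyl sulfoxide (DMSO) for 24 h, and DMSO was at most 0.1% in both groups. RNA of 2 cultures per group, called biological replicates by the sample titles, was hybridised to the Affymetrix Human Transcriptome Array. No label gives a passage, preparation day or hybridisation batch, so p-values measure only the spread between these arrays, and their number limits the precision of every value.

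The respiratory chain passes electrons from NADH (complex I) and succinate (complex II) through complex III to oxygen at complex IV and pumps protons across the inner mitochondrial membrane, and ATP synthase uses the returning protons to make ATP. A few subunits are encoded in mitochondrial DNA, while all others, and the assembly factors that insert cofactors and join subunits, are nuclear genes such as those described here. TCDD is a persistent ligand of the aryl hydrocarbon receptor (AhR), which acts with its partner ARNT as a transcription factor. Nerve cells depend strongly on oxidative phosphorylation for their energy.

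Values are log2 signals as the authors deposited them, and changes are differences of the group means, DMSO subtracted from TCDD, each with limma's moderated standard error (SE). A gene was called higher or lower at a Benjamini-Hochberg adjusted p under 0.05 over all 13493 features. Signals of different features also reflect their probes, so no level is ranked across genes. Median signals of the arrays lay between 8.19 and 8.22, and their interquartile ranges were 2.13 and 2.00 in DMSO replicates 1 and 2 and 2.21 and 2.20 in the TCDD arrays. In RNA of whole cultures, a shift in the mix of cells and a change in RNA per cell cannot be told apart. Markers of noradrenergic neuroblasts read between 9.52 and 11.6 in the 6 of 14 listed genes that were measured, GATA2, HAND1, HAND2, ISL1, ALK and MYCN, with 1, HAND1, called higher and 0 lower (2 at an unadjusted p under 0.05). Their summed log2 signals were 65.4 and 64.8 in DMSO and 65.6 in both TCDD arrays. The file carries no detection calls, so no marker can be called absent.

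Most respiratory chain genes read slightly higher in TCDD than in DMSO. Of the 28 measured genes, 27 had a change above 0, from 0.015 to 0.33, and 1, NDUFAF2, lay below it at -0.052, while 54.8% of all features lay above 0. The median change was 0.15 on the log2 scale, or 1.11-fold, and the median SE of a gene was 0.058. By limma, 6 rose (21.4%) and 0 fell, with 16 higher and 0 lower at an unadjusted p under 0.05. The genes that rose were NDUFB5, NDUFS4 and NDUFA10 of complex I, UQCRQ of complex III, and COX5B and COX18 of complex IV. Over all features tested, 9.41% were called higher, 8.01% lower and 17.4% in either direction, and 22.8% were higher at an unadjusted p under 0.05. The 2 arrays of each group did not overlap for 23 of the 28 genes, all of them higher in TCDD (82.1%), against 40.7% of all features that did so in that direction and 30.9% in the other.

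**Figure D1:**
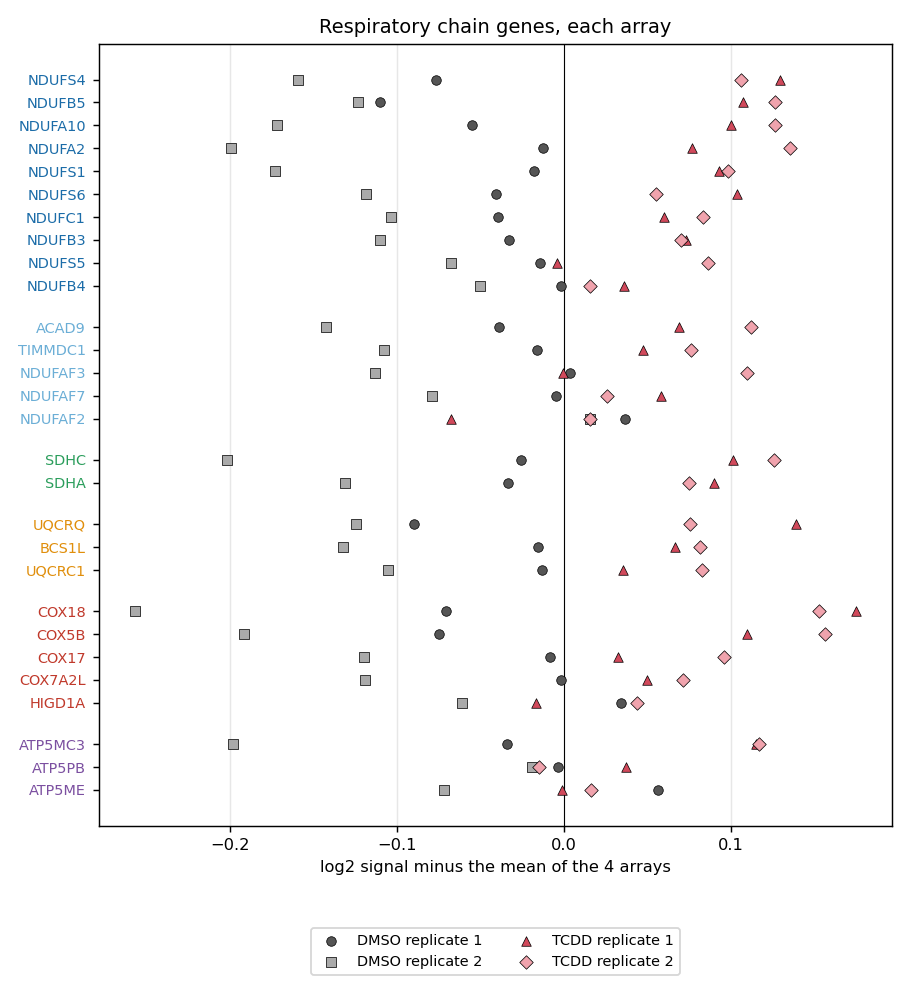
Log2 signal of each respiratory chain gene on each of the 4 arrays, after subtracting that gene's mean over the arrays, with label colours for complex I subunits (dark blue), complex I assembly factors (light blue), complex II (green), complex III (orange), complex IV (red) and ATP synthase (purple). DMSO replicate 2 lies below DMSO replicate 1 for all 28 genes, and both TCDD arrays lie above both DMSO arrays for 23 of them.

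The controls themselves differed for these genes. DMSO replicate 1 read above DMSO replicate 2 in 28 of 28, by a median of 0.096, whereas the TCDD arrays differed by a median of 0.028 in either direction. Measured against DMSO replicate 1 alone the median difference of the TCDD mean was 0.11, and against DMSO replicate 2 alone 0.19. Other genes with 1 symbol and a mean signal in the same range, 7.97 to 12.3, showed the same split in 76.7% of 4601 cases, with a median of 0.061, and over all features the share was 48.6%. These genes in the same range also had a median change of 0.092, and 75.3% of them lay above 0, 61.6% did so without overlap, 32.0% were higher at an unadjusted p under 0.05, and 9.26% were called higher and 3.19% lower. The part of the control split in the changes of the respiratory chain genes was not tested.

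Bright and dim genes of the array differed in their median change, as the plot of change against signal shows. In 20 bins of equal size by mean signal, the median change of other genes ran from -0.074 in the dimmest bin to 0.14 in the bin between signals of 9.57 and 9.77, and was 0.086 in the brightest. For each respiratory chain gene, the median change of the other genes in its bin was subtracted. The remainder ran from -0.14 (NDUFAF2) to 0.21 (ATP5MC3), with a median of 0.044, and it was above 0 for 19 of 28 genes. The 95% interval of the change lay above the bin median for 2 genes, COX18 and ATP5MC3. The median remainder was above 0 under every scaling, filter and array removal that was run, between 0.030 and 0.061.

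**Figure D2:**
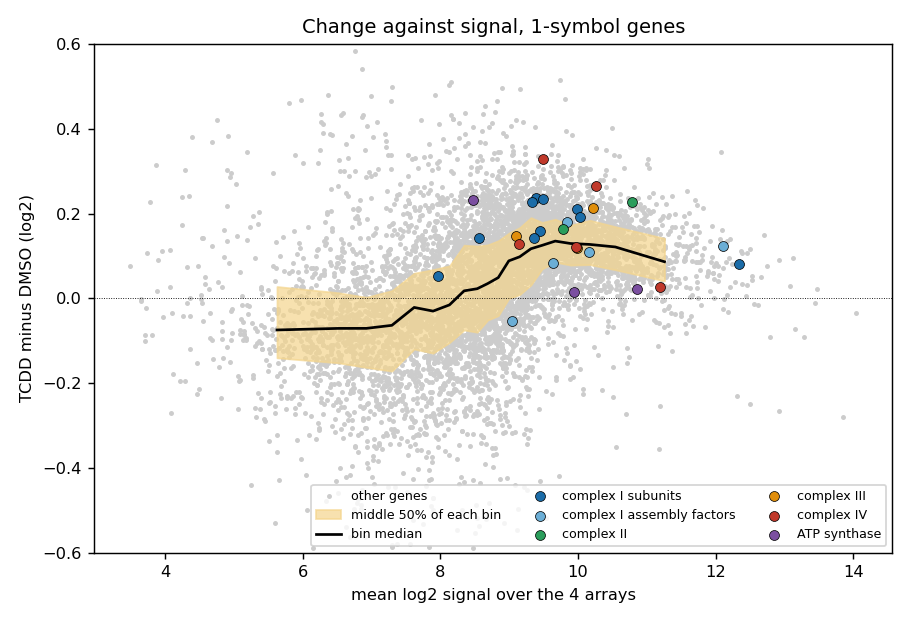
Change (TCDD minus DMSO, log2) against mean log2 signal over the 4 arrays for 1-symbol genes (grey), with the median of each of 20 signal bins (black line), the middle 50% of each bin (yellow) and the respiratory chain genes coloured by complex; 40 other genes lie outside the plotted range. Of the 28 respiratory chain genes, 19 lie above the bin median.

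The promoters of the genes that rose are shown because the 6 genes moved the same way. RefSeq (GRCh38.p14) gave a window of 300 bases, 250 before to 50 after the first listed start, for 24 of the 28 genes and for 5 of the 6 that rose. The 250 bases before the start are printed for 4 of them. They set the gene with the largest change beside 2 with matches to ETS letters and 1 with no match in these bases. They lie at chr4:73069717-73069966 on the minus strand (COX18), chr2:97645812-97646061 on the plus strand (COX5B), chr5:132866392-132866641 on the plus strand (UQCRQ) and chr5:53560389-53560638 on the plus strand (NDUFS4), and capitals mark every match to the letters given in the next paragraph.
COX18: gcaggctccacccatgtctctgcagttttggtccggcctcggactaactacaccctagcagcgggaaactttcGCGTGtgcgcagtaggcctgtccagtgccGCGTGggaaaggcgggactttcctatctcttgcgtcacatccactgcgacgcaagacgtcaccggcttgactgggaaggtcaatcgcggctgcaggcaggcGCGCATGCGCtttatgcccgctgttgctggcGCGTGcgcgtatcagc
COX5B: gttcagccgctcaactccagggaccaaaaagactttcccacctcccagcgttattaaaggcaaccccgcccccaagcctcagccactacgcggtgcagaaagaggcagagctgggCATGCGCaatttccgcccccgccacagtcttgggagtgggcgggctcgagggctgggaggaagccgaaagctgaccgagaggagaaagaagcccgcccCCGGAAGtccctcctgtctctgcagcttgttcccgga
UQCRQ: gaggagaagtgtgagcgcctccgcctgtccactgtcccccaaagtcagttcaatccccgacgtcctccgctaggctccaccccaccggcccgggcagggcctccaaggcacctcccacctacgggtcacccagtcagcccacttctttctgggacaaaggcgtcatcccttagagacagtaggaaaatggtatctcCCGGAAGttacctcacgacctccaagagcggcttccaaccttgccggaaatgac
NDUFS4: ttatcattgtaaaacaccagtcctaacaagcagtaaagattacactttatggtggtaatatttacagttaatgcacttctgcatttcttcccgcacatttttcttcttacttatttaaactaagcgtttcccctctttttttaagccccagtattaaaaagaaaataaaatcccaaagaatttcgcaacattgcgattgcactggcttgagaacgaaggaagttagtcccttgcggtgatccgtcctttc

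Promoters of respiratory chain genes are known to bind NRF1, ETS factors such as GABP, and YY1. The letters searched, on both strands, were GCGCATG for NRF1, CCGGAAG for ETS factors, ATGGCGG for YY1 and GCGTG for the core of the xenobiotic response element that AhR binds with ARNT. NRF1 letters stood in 6 of the 24 windows (25%), against 4.67% of 27305 windows of all genes, 1 a gene, and 5.12% of the windows of 4606 other measured protein-coding genes. ETS letters stood in 6 (25%, against 10.7% and 12.4%), YY1 letters in 5 (20.8%, against 5.72% and 7.45%) and the GCGTG core in 12 (50%, against 36.3% and 43.5%). Before its start, COX18 held 3 GCGTG matches and 2 NRF1 matches that overlap each other on opposite strands. COX5B held 1 NRF1 match, which a longer NRF1 motif searched first did not find, and 2 ETS matches, 1 of them before its start, and UQCRQ 1 ETS match. NDUFS4 held 1 YY1 match, after its start, and its window had a GC content of 40.3%, against 62.7% for COX18. The window of NDUFA10, not printed, held no match to any of the letters. Among the genes that rose and had a window, COX18 alone held the GCGTG core, and ATP5ME, with a change of 0.015, also held 3 GCGTG matches and 1 NRF1 match. A match describes the letters and is not a bound site. The letters were chosen after values were seen, and those of NRF1 and YY1 were shortened after a first search. The shares are therefore descriptions and not tests.

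Complex I, the NADH dehydrogenase, held 3 of the 6 rises. Its 10 subunits and 5 assembly factors were also a large part of the 28 measured genes. The 10 subunits all had changes above 0, with a median of 0.18 and a median remainder over their bins of 0.082. At an unadjusted p under 0.05 there were 8 of them. Of other genes in the same signal range, 75.3% lay above 0, 32.0% were higher at an unadjusted p under 0.05, and 9.26% were called higher. NDUFB5, an accessory subunit of the membrane arm encoded on chromosome 3, read 9.38 and 9.37 in the DMSO arrays and 9.60 and 9.62 in the TCDD arrays. Its DMSO arrays lay closer together than those of any other of the 6 genes that rose, and the groups did not overlap. It rose by 0.23 (SE 0.050, limma adjusted p = 0.030).

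NDUFS4, on chromosome 5, is an accessory subunit of the peripheral arm whose loss in humans and mice causes Leigh syndrome or a disease like it. It read 9.31 and 9.23 in DMSO and 9.51 and 9.49 in TCDD, without overlap. The rise was 0.24 (SE 0.055, limma adjusted p = 0.037). NDUFA10, on chromosome 2, is an accessory subunit of the membrane arm related to nucleoside kinases. It read 9.28 and 9.16 in DMSO and 9.43 and 9.46 in TCDD, and rose by 0.23 (SE 0.060, limma adjusted p = 0.049), just inside the threshold.

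The 4 measured subunits of the peripheral arm, which takes electrons from NADH, were NDUFS1, NDUFS4, NDUFS6 and NDUFA2, with changes from 0.16 to 0.24 and a median of 0.20. NDUFS1 carries iron-sulphur clusters and is the largest core subunit. It differed by 0.19 (SE 0.066, limma adjusted p = 0.088), NDUFA2 by 0.21 (SE 0.074, limma adjusted p = 0.090) and NDUFS6, a zinc-binding subunit, by 0.16 (SE 0.056, limma adjusted p = 0.090), none of them called. The 6 subunits of the proton-pumping membrane arm ranged more widely, from 0.052 to 0.23 with a median of 0.14, and a difference between the arms was not tested. After subtraction of the bin medians the order was the other way, 0.073 for the peripheral and 0.095 for the membrane arm. NDUFC1 and NDUFB3 each differed by 0.14 and NDUFS5 by 0.082, and none passed. NDUFB4 had the smallest change of the subunits, reading 7.97 and 7.92 in DMSO and 8.01 and 7.99 in TCDD, so the change was 0.052 (SE 0.052, limma adjusted p = 0.470; 95% interval -0.073 to 0.18).

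The 5 assembly factors of complex I included 0 calls by limma and 1 gene at an unadjusted p under 0.05. Their median change was 0.11, and their median remainder over the bins was -0.018. ACAD9, an acyl-CoA dehydrogenase relative that works in the assembly complex of the membrane arm, read 9.80 and 9.69 in DMSO and 9.90 and 9.95 in TCDD. The groups did not overlap, but the difference of 0.18 (SE 0.059, limma adjusted p = 0.077) did not pass. TIMMDC1, a membrane-bound assembly factor, differed by 0.12, NDUFAF3, which acts early in assembly, by 0.11, and NDUFAF7, a methyltransferase that modifies a core subunit, by 0.084. Quantile normalization turned NDUFAF3 to -0.027 and NDUFAF7 to -0.033, and cyclic loess did likewise.

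NDUFAF2, a late assembly factor related to the subunit NDUFA12, read 9.07 and 9.05 in DMSO and 8.97 and 9.05 in TCDD. DMSO replicate 2 and TCDD replicate 2 were almost equal, and the groups overlapped. The change was -0.052 (SE 0.055, limma adjusted p = 0.498). Its 95% interval, -0.19 to 0.081, lies below the median change of 0.088 in its signal bin, which was not counted for other genes. ERCC8, a gene of transcription-coupled DNA repair that starts 135 bases away on the other strand, read 8.57 and 8.49 in DMSO and 8.80 and 8.74 in TCDD, and rose by 0.24 (SE 0.057, limma adjusted p = 0.040).

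**Figure D3:**
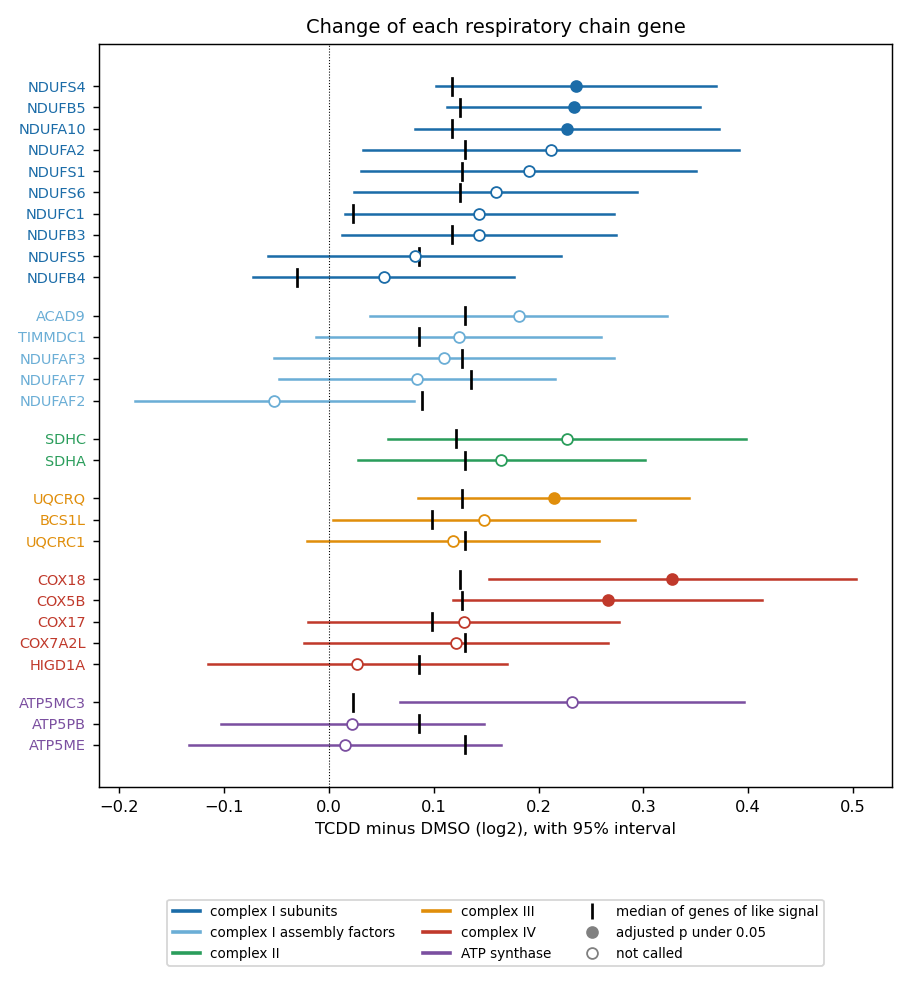
Change of each respiratory chain gene (TCDD minus DMSO, log2, circle) with its 95% confidence interval from limma, grouped and coloured by complex, filled where the adjusted p was under 0.05, and the median change of other genes in the same signal bin (black tick). The 6 filled genes lie between 0.21 and 0.33, and the intervals of COX18 and ATP5MC3 lie above their ticks, which was not counted for other genes.

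Complex II, succinate dehydrogenase, links the tricarboxylic acid cycle to the chain and has nuclear subunits only. By limma 0 of its 2 measured genes were called, both at an unadjusted p under 0.05. SDHC, a membrane anchor, read 10.8 and 10.6 in DMSO and 10.9 in both TCDD arrays, a difference of 0.23 (SE 0.070, limma adjusted p = 0.070). SDHA, the flavoprotein subunit and a common reference gene, read 9.74 and 9.64 in DMSO and 9.87 and 9.85 in TCDD, a difference of 0.16 (SE 0.057, limma adjusted p = 0.087). Neither pair of groups overlapped, yet the DMSO arrays of SDHC stood 0.18 apart. SDHA has near-identical pseudogene copies, and whether its probes also bind their transcripts is not given in the sources used here. The features of SDHAP3 and SDHAP4 differed by 0.21 (SE 0.062, limma adjusted p = 0.061) and 0.24 (SE 0.065, limma adjusted p = 0.051), the feature shared by SDHAP1 and SDHAP2 by 0.21 and that shared by SDHAP2 and MIR570HG by 0.23, none of them called.

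Complex III, the cytochrome bc1 complex, contributed 3 measured genes with a median change of 0.15. UQCRQ, a small subunit at the membrane on chromosome 5, read 10.12 and 10.09 in DMSO and 10.35 and 10.29 in TCDD. Its groups were apart by more than the spread within either of them, and it rose by 0.21 (SE 0.053, limma adjusted p = 0.044). BCS1L, an AAA-type protein that inserts the Rieske iron-sulphur protein, differed by 0.15 (SE 0.059, limma adjusted p = 0.120). UQCRC1, a core protein facing the matrix, read 9.97 and 9.88 in DMSO and 10.02 and 10.06 in TCDD, a difference of 0.12 (SE 0.057, limma adjusted p = 0.175), which was -0.016 under quantile normalization and -0.0033 after cyclic loess. The feature that UQCRH, the hinge protein, shares with the retrogene UQCRHL differed by 0.16 (SE 0.076, limma adjusted p = 0.162), and that of UQCRHL alone by 0.17 (SE 0.069, limma adjusted p = 0.124).

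Complex IV, cytochrome c oxidase, held the gene with the largest change in the set. COX18, an inner-membrane insertase for a mitochondrially encoded subunit, on chromosome 4, read 9.42 and 9.23 in DMSO and 9.66 and 9.64 in TCDD. It rose by 0.33 (SE 0.072, limma adjusted p = 0.033), although its DMSO arrays stood 0.19 apart, the widest gap of the 6 genes that rose. COX5B, a nuclear subunit on chromosome 2 that binds zinc, read 10.18 and 10.07 in DMSO and 10.37 and 10.41 in TCDD. It rose by 0.27 (SE 0.061, limma adjusted p = 0.036), without overlap of the groups.

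The 3 other measured genes of complex IV did not pass. COX17, the copper chaperone of the intermembrane space, differed by 0.13 (SE 0.061, limma adjusted p = 0.169). COX7A2L, which joins complexes III and IV in supercomplexes, differed by 0.12 (SE 0.060, limma adjusted p = 0.181), and this was -0.012 under quantile normalization. HIGD1A, a hypoxia-inducible protein that binds complex IV, read 11.22 and 11.13 in DMSO and 11.17 and 11.23 in TCDD, and the arrays of both groups were interleaved. Its difference was 0.027 (SE 0.059, limma adjusted p = 0.748), and it was below 0 under both normalizations, without DMSO replicate 2 and without TCDD replicate 2. The feature that COX7C shares with MIR3607 differed by 0.094 (SE 0.056, limma adjusted p = 0.254).

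ATP synthase had a median change of 0.022, the lowest of the 6 groups of genes (0.079 without DMSO replicate 1 and 0.048 without TCDD replicate 2), with changes from 0.015 to 0.23, and by limma 0 of its 3 genes were called (1 at an unadjusted p under 0.05). ATP5MC3, a gene of the proton-carrying c-ring (older name ATP5G3), read 8.44 and 8.28 in DMSO and 8.59 in both TCDD arrays. The difference of 0.23 (SE 0.068, limma adjusted p = 0.061) did not pass, and it stood 0.21 above the median of its signal bin. ATP5PB, of the peripheral stalk (older name ATP5F1), differed by 0.022 (SE 0.052, limma adjusted p = 0.763), with overlapping groups. ATP5ME, the e subunit of the membrane sector (older name ATP5I), read 9.99 and 9.87 in DMSO and 9.94 and 9.95 in TCDD, with both TCDD arrays between the DMSO arrays. Its change was 0.015 (SE 0.061, limma adjusted p = 0.869). The 95% intervals of ATP5PB and ATP5ME reached up to 0.15 and 0.16, so the median change of the set lies within both. Under quantile normalization and cyclic loess, ATP5PB read -0.13 and -0.099 and ATP5ME -0.11 and -0.11.

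The calls of the 6 genes depended on scaling and on which arrays entered the fit. After cyclic loess normalization, which removes the trend between change and signal, 0 of 28 were called by limma (7 at an unadjusted p under 0.05). Among all features 7.26% were called higher, and among other genes of the same signal range 3.72%. The changes of the 6 genes were then 0.089 to 0.22, with adjusted p-values from 0.054 (COX18) to 0.201 (UQCRQ). Quantile normalization also left 0 calls (9 at an unadjusted p under 0.05), with changes from 0.080 to 0.22. In that setting 5.61% of all features and 2.65% of other genes of the same signal range were called higher. Without DMSO replicate 1, 17 genes were called, against 0 without DMSO replicate 2 (11 at an unadjusted p under 0.05), 0 without TCDD replicate 1 (7 at an unadjusted p under 0.05) and 1, COX18, without TCDD replicate 2. Each of these fits leaves 1 group with a single array, which is assumed to vary like the other group, so the DMSO pair alone gave the spread when a TCDD array was left out. limma then used the same SE of 0.115 for each of the 6 genes, and their changes were 0.18 to 0.32 without TCDD replicate 1 and 0.21 to 0.34 without TCDD replicate 2, against 0.21 to 0.33 with all arrays. Without DMSO replicate 2 the changes were 0.17 to 0.23. Over all features, the shares called higher in these 4 fits were 19.1%, 2.74%, 4.05% and 5.97%, in the same order, and over other genes of the same signal range 32.3%, 0.739%, 1.5% and 1.89%. COX18 changed by 0.42 without DMSO replicate 1 and by 0.23 without DMSO replicate 2. Adjusted over protein-coding features alone, the same p-values gave 0 calls among the 28 (16 at an unadjusted p under 0.05), with 0.0191% of these features called higher. With the spread also estimated from those features 15 of the 28 were called, against 24.8% of these features called higher. Among other genes of the same signal range the share was 30.6%.

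**Figure D4:**
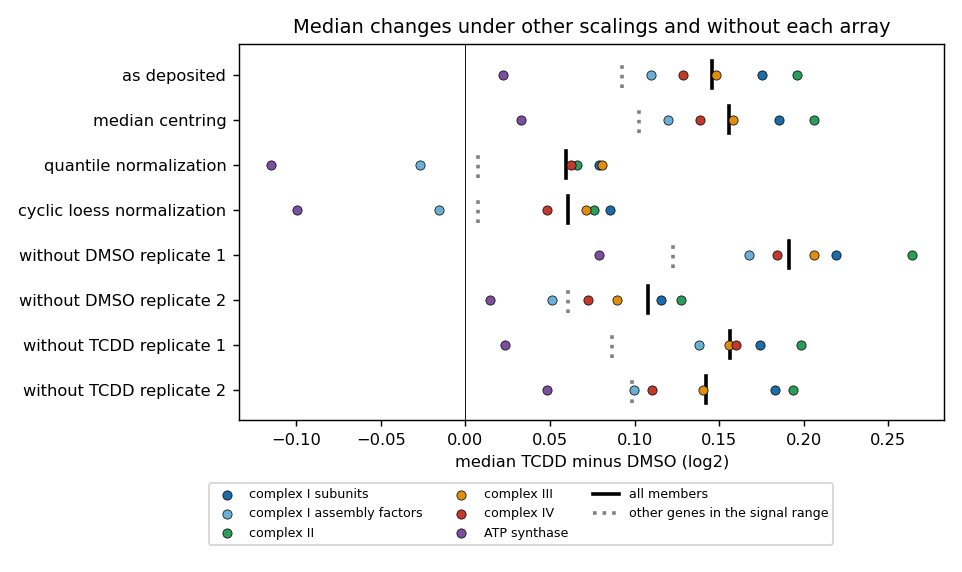
Median change (TCDD minus DMSO, log2) of the respiratory chain genes by complex (coloured points), of all 28 (black bar) and of other 1-symbol genes in the same signal range (grey dotted bar), for the deposited values, other scalings and each array left out. Under quantile and cyclic loess normalization the medians of all 28 are 0.060 and 0.061 and those of ATP synthase -0.11 and -0.099.

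Further genes of the pathway outside the set mostly had changes above 0 as well. So did 75.3% of other genes in the signal range of the set and 54.8% of all features. The shares called higher were 9.26% of all other genes in that range and 9.41% of all features. Of 12 other measured respiratory chain genes, 11 had a change above 0, with a median of 0.18, and 1 rose and 0 fell (9 at an unadjusted p under 0.05). It was HIGD2A, an assembly factor of complex IV, which read 10.96 and 10.85 in DMSO and 11.11 and 11.18 in TCDD and rose by 0.24 (SE 0.062, limma adjusted p = 0.048). The testis-type isoform COX7B2 was the gene below 0, at -0.16 (SE 0.063, limma adjusted p = 0.116). Over their signal bins the 12 genes had a median remainder of 0.059, above 0 for 10 of them. Of 6 genes of the tricarboxylic acid cycle and pyruvate entry, SUCLG2, a subunit of succinyl-CoA ligase, rose by 0.24 (SE 0.059, limma adjusted p = 0.043). It read 9.04 and 8.94 in DMSO and 9.25 and 9.21 in TCDD. All 6 genes lay above 0 with a median of 0.15, and their median remainder over the bins was 0.027. Neither HIGD2A nor SUCLG2 was called after cyclic loess (changes of 0.12 and 0.16), under quantile normalization (0.11 and 0.18) or without DMSO replicate 2 (0.18 and 0.19). Without TCDD replicate 1 their changes were 0.27 and 0.22, and without TCDD replicate 2 0.20 and 0.26, also not called, with the spread again from the DMSO pair alone (SE 0.115).

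In the lists of mitochondrial protein import (11 genes measured), biogenesis and genome maintenance (7), dynamics and cristae (8), and glycolysis (8), 0 genes were called by limma in either direction. At an unadjusted p under 0.05 there were 6, 1, 2 and 3, in the same order. Of other genes in the signal range of the respiratory chain set, 9.26% were called higher and 3.19% lower. At an unadjusted p under 0.05, 32.0% of them were higher. With 7 to 11 genes a list, 0 calls cannot be told apart from these shares. The median changes were 0.14, 0.065, 0.12 and 0.082, against 0.056 over all 1-symbol genes and 0.023 over all features. After subtraction of the bin medians the median remainders were 0.035, 0.0066, 0.011 and 0.010, and 8, 4, 4 and 4 genes lay above their bin median. The genes with the smallest p in each list were DNAJC19, an import motor protein (0.26, limma adjusted p = 0.061), TFB2M, a mitochondrial transcription factor (0.22, limma adjusted p = 0.063), MFF, a fission receptor (0.20, limma adjusted p = 0.058), and SLC2A1, a glucose transporter (0.17, limma adjusted p = 0.096). PPARGC1A, a coactivator known to drive mitochondrial biogenesis, differed by -0.057 (SE 0.060, limma adjusted p = 0.496), and PPARGC1B by -0.088 (SE 0.052, limma adjusted p = 0.246). After subtraction of the bin medians the remainder was 0.0066 for PPARGC1A and -0.11 for PPARGC1B.

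Markers of other cell types or states moved in part with the groups. Of 6 measured genes of the mesenchymal neuroblastoma state, 4 rose and 0 fell, PRRX1, TGFBR2, NOTCH2 and ITGA4, against 9.41% of all features called higher. The median remainder of the 6 over their bins was 0.13, above 0 for 5 of them. The summed log2 signals of the list were 56.5 and 56.3 in DMSO and 57.6 and 57.5 in TCDD. Of 7 immune markers, FCGR3A and CD74 fell and 0 rose, while 8.01% of all features were called lower. Their sums were 50.82 and 51.50 in DMSO and 49.97 and 50.26 in TCDD. These 7 read between 6.12 and 8.73, where most dim genes had bin medians below 0. After subtraction of the bin medians their median remainder was -0.076, above 0 for 2 of them. Of the 1 Schwann, 2 endothelial, 1 epithelial and 4 hepatic markers measured, 0 were called by limma (1 at an unadjusted p under 0.05, the Schwann-lineage factor FOXD3 at -0.19), and the smallest p in the other 3 lists belonged to KDR (-0.072), EPCAM (0.054) and APOB (-0.11). The marker calls were not followed under other scalings or with arrays left out. The part of these markers in the changes of the respiratory chain genes was not tested.

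Start sites were listed for 24 of the 28 respiratory chain genes. For 11 of them, a gene on the other strand started within 1000 bases and ran away from them. Of these partners, 9 were measured by a 1-symbol feature. Of the 9 partners, 7 had a change above 0, with a median of 0.11, and 1 was called, ERCC8 beside NDUFAF2. Of other genes in the signal range of the set, 75.3% lay above 0 and 9.26% were called higher, against 54.8% and 9.41% of all features. GDF9 beside UQCRQ differed by 0.12 (SE 0.050, limma adjusted p = 0.124), CCDC127 beside SDHA by 0.20 (SE 0.059, limma adjusted p = 0.065), and WDR77 beside ATP5PB by 0.14 (SE 0.053, limma adjusted p = 0.109). MYL5 beside ATP5ME and CEBPZ beside NDUFAF7 lay below 0, at -0.098 and -0.048, and neither was called.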

How the data were processed

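RNA of 2 DMSO and 2 TCDD cultures was measured on arrays. The deposited values are log2 signals made by the authors with RMA, per the submitters' processing notes; the sources used here do not give its version, settings or genome build. RMA equalises probe distributions, but interquartile ranges of the features analysed here still differed between arrays. Gene symbols came from the platform annotation, updated through RefSeq: 6647 features had 1 symbol, 341 several and 6505 none here, and 6574 genes were represented by their feature of highest mean. Features of chromosomes 1 to 5 were analysed here. Every feature was fitted with limma 3.58.1 in R 4.3.3 (lmFit, eBayes, TCDD against DMSO, no block, 2 residual and 4.27 prior degrees of freedom), two-sided, with Benjamini-Hochberg adjustment over all 13493 features. The function was tested on simulated data.

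Array values were given for every called gene, for the gene with the smallest and largest p of each complex, and for genes below 0; from each other pathway or marker list, called genes up to 3 by smallest p, or otherwise the gene with the smallest p, were named. NOTCH2, noradrenergic markers other than HAND1, PPARGC1A, PPARGC1B, COX7B2, the pseudogenes, the divergent partners and the promoter letters were chosen after their values were seen. The NRF1 and YY1 letters were shortened after a first search with longer motifs, which gave no NRF1 match in COX5B. The respiratory chain genes and all lists were chosen with earlier results of these data known. Signal bins, scalings, filters, a replicate block and removal of each array were tried, and fits on protein-coding features were added after seeing the data. The files pair replicates by number only.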

Additional observations from a re-analysis of the deposited data

How the results depend on the processing

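The direction of the median change of all 28 respiratory chain genes, 0.15, was the same in every fit run, and it was 0.060 under quantile normalization and 0.061 after cyclic loess. Under these 2 settings, in that order, the medians were 0.079 and 0.086 for complex I subunits, -0.027 and -0.015 for complex I assembly factors, 0.066 and 0.076 for complex II, 0.080 and 0.071 for complex III, 0.062 and 0.048 for complex IV, and -0.11 and -0.099 for ATP synthase. Single genes that turned below 0 in the same 2 settings were NDUFAF3 (-0.027 and -0.015), NDUFAF7 (-0.033 and -0.026), UQCRC1 (-0.016 and -0.0033), COX7A2L (-0.012 and -0.00024), HIGD1A (-0.068 and -0.086), ATP5PB (-0.13 and -0.099) and ATP5ME (-0.11 and -0.11). HIGD1A ran from -0.021 (without DMSO replicate 2) to 0.075 with each array left out and was -0.0033 without TCDD replicate 2, ATP5PB was -0.0035 without TCDD replicate 1, and ATP5ME -0.049 without DMSO replicate 2. Both settings equalise array contrast by construction, and which scaling is nearer to the RNA content was not tested. With each array left out in turn, medians ran from 0.12 to 0.22 for complex I subunits, 0.051 to 0.17 for complex I assembly factors, 0.13 to 0.26 for complex II, 0.090 to 0.21 for complex III, 0.073 to 0.18 for complex IV and 0.014 to 0.079 for ATP synthase, with the lowest value without DMSO replicate 2 and the highest without DMSO replicate 1 in each group.

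Of all features, 2351 were called, against 1478 under quantile normalization, 5332 at an unadjusted p under 0.05, 2 with adjustment over the protein-coding ones alone, and 644 to 4661 with each array left out. Of the 28 genes, 6 were called, against 0 under quantile normalization, 0 after cyclic loess, 16 at an unadjusted p, 15 with protein-coding features alone in the fit, 0 with adjustment over them alone, and 0 to 17 with each array left out. Of the genes of the 6 other pathway lists 2 were called, against 0 under quantile normalization, 0 after cyclic loess, 6 and 10 without the dimmest 25% and 50% of features, 7 with a trended robust prior, 24 at an unadjusted p, 23 with protein-coding features alone in the fit, 0 with adjustment over them alone, and 0 to 24 with each array left out. With the replicate number as a block, 3634 features, 9 of the 28 genes and 10 of the list genes were called. The differences between replicates 1 and 2 correlated between the groups at 0.037 over features. This value does not settle whether the numbers pair the arrays. Under the block limma used the same SE of 0.078 for HIGD2A and SUCLG2, above their 0.062 and 0.059 without it. Their unadjusted limma p-values were nevertheless smaller, 0.0023 for both against 0.0080 and 0.0062. An SE shared by both genes means that limma pooled the spread over features and did not use that of their own arrays. It then takes p-values from a normal distribution, whereas the main fit had 2 residual and 4.27 prior degrees of freedom. The smaller p-values of these 2 genes are therefore no measure of a pairing. Other reasons for the added calls were not tested. NDUFA10 lost its call after median centring (adjusted p = 0.050).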
